A study of Mus musculus with 4 samples.

Results

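The genes of mitosis and the G2/M transition are those a cell switches on to enter division, build the spindle, sort the chromosomes and split. A list of 40 such genes, from Mki67 and Top2a to the mitotic cyclins, the Aurora and Polo kinases, kinetochore genes and cytokinesis genes, was followed in haematopoietic stem cells (HSCs) with high and with low N-myc. Members were taken by name, whatever their values. A probe set counted if the platform annotation gave it 1 gene name, and a gene was represented by its brightest probe set on average. In this way 38 of the 40 genes were measured, of 18193 genes in all; Ccnb1 and Hjurp were not.

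The 2 groups were N-myc high HSCs (n = 2 arrays, mouse 1 and mouse 2) and N-myc low HSCs (n = 2 arrays, mouse 1 and mouse 2), both from the marrow of mice that carry a fusion of N-myc to the red fluorescent protein mCherry. Sorted cells were Sca-1, Kit and CD150 positive, CD48 negative and free of lineage markers, and their mCherry signal decided the fraction. All groups therefore carry the fusion gene, none was treated or cultured, and the labels give neither strain nor age nor where the mCherry gates lay. RNA of 5 ng per sample was amplified before hybridisation, and every value below is an RMA log2 intensity of a probe set, on which a difference of 1 is a 2-fold difference. A microarray reads RNA pooled from many cells, so more dividing cells and more of a transcript in each dividing cell cannot be told apart.

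Transcripts of this group are low in resting cells, accumulate through G2 under the control of the MuvB complex with B-Myb and FOXM1, and are destroyed or shut off after division. In G0 and early G1 the DREAM complex holds the same genes down, so their level in a population is read as a sign of cells in cycle, not as a count of them. Adult HSCs are known to be mostly out of cycle. MYC proteins, N-myc among them, bind DNA together with MAX at E-boxes and are known for driving growth and cell cycle entry.

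The libraries were checked first. Mycn was at 10.48 and 10.39 in N-myc high HSCs (mouse 1 and 2) and at 9.44 and 9.65 in N-myc low HSCs, a difference of 0.89 (SE 0.189, limma adjusted p = 0.762). The arrays labelled mouse 1 carried Xist at 11.38 in N-myc high and at 11.10 in N-myc low together with the Y-linked Eif2s3y at 8.53 and 8.43, whereas in mouse 2 Xist was at 3.84 and 3.70. RNA of both sexes is thus present in the arrays of mouse 1, and comparisons are given within each mouse as well. Of the surface genes used in the sort, Kit lay between 10.17 and 10.53 and Slamf1, which encodes CD150, between 8.01 and 8.99. Cd48, the marker for which sorted cells were negative, was at 7.42 and 7.11 in N-myc high and at 9.89 and 9.07 in N-myc low. Its difference was -2.21 (limma adjusted p = 0.744), and the cause was not tested. Gene-level correlations between arrays ran from 0.972 to 0.980.

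What the members share in sequence was read from RefSeq promoter windows (GRCm38.p6), which span 250 bases before to 50 after a transcription start. For 35 of the 40 members a window was at hand, and where a gene had several windows the first listed was used. The CCAAT box, the letters CCAAT on either strand, was found in 27 of 35 windows (77.1%), against 5521 of 14452 (38.2%) over all measured genes with a window. The letters TTTGAA, the core of the cell cycle homology region that MuvB binds, stood on either strand of 25 windows (71.4%), against 13.3% over all. Both motifs together were in 21 (60.0%), against 5.37%. The palindromic E-box CACGTG, to which MYC and MAX bind, stood in 2 windows (5.71%), those of Ttk and Anln, against 9.02% over all. Neighbouring matches may share end letters, and a match shows only that the letters are present.

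The 6 windows printed here belong to the members with an entry that had the smallest unadjusted limma p in each direction, Hmmr, Ttk and Nusap1 with positive and Birc5, Bub1 and Anln with negative differences between N-myc high and N-myc low. Capitals mark the 3 motifs on either strand, and each window reads 5′ to 3′ on the strand of its gene.
Hmmr, chr11:40733388-40733687, minus strand: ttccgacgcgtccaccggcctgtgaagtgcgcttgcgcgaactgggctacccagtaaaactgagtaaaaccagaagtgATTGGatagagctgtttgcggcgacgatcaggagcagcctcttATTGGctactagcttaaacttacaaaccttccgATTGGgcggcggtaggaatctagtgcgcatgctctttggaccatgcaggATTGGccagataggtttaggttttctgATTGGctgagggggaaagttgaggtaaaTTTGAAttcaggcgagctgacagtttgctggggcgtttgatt
Ttk, chr9:83834439-83834738, plus strand: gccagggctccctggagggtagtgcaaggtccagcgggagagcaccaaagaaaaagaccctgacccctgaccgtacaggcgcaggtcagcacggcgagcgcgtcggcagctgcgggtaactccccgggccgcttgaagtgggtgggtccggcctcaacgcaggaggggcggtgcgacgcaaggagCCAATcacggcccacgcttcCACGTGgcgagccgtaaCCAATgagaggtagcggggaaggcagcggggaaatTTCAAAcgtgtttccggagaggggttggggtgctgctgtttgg
Nusap1, chr2:119618048-119618347, plus strand: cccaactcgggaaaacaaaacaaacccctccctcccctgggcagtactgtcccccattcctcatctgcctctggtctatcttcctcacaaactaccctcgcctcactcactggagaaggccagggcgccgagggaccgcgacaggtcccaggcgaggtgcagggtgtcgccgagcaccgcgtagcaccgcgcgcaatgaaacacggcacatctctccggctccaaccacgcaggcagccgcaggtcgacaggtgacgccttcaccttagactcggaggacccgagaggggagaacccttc
Birc5, chr11:117848987-117849286, plus strand: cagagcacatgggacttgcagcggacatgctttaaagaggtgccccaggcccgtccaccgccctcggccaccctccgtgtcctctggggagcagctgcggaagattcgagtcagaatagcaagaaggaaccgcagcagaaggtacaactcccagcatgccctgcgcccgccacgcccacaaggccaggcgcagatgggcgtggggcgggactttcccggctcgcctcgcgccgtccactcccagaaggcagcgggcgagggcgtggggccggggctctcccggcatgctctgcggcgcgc
Bub1, chr2:127831810-127832109, minus strand: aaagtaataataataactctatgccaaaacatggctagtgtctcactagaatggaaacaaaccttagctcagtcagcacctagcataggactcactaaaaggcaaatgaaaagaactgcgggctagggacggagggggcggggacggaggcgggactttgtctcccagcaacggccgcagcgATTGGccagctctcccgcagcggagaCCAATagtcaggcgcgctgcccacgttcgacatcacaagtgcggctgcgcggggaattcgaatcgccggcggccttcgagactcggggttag
Anln, chr9:22389157-22389456, minus strand: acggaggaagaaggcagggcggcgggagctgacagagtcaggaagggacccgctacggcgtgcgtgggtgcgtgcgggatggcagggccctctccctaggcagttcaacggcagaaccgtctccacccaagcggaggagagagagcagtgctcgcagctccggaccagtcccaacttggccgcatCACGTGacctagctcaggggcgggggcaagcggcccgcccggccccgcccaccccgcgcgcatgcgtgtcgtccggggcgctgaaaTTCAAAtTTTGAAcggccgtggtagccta

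The window of Hmmr held 5 CCAAT boxes and 1 TTTGAA, and that of Anln held 0 CCAAT boxes, 2 TTTGAA and 1 CACGTG. No letters of any of the 3 motifs were in the windows of Nusap1 and Birc5. Members with TTTGAA had a median difference of -0.07 (24 measured members) and those without it -0.00 (9 measured members). For CCAAT the medians were -0.05 with the box (25 members) and -0.18 without it (8 members).

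**Figure D1:**
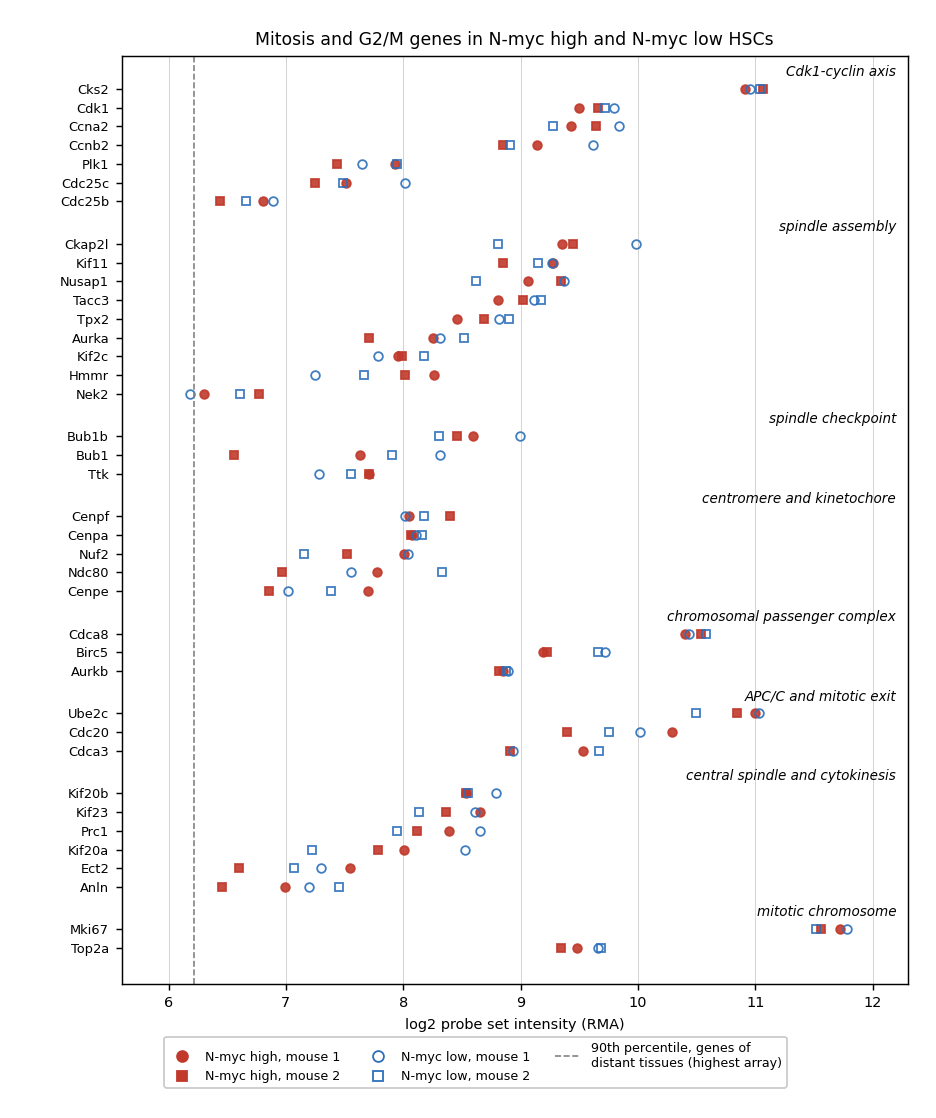
Log2 probe set intensity (x axis) of each of the 38 measured members (rows, grouped by role) in N-myc high (filled red) and N-myc low (open blue) HSCs of mouse 1 (circles) and mouse 2 (squares). The dashed line is the highest of the 4 arrays' 90th percentiles of distant-tissue genes (6.22), and 1 point lies left of it, Nek2 in N-myc low of mouse 1 (6.19), which is above the 6.14 of its own array.

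Probe sets of the members were bright against a background list in both fractions. Mki67, the gene of the proliferation antigen Ki-67, was at 11.72 and 11.56 in N-myc high HSCs and at 11.78 and 11.52 in N-myc low HSCs (mouse 1 and 2). To gauge the intensity of a probe set without its transcript, 40 genes of distant tissues such as liver, lens, heart and testis were listed, of which 37 were measured. Their 90th percentile was 6.10 and 6.22 in N-myc high arrays, against 6.14 and 5.96 in N-myc low arrays, and all 38 members lay above it on all 4 arrays. The brightest gene of that list, the sperm protamine gene Prm1, was at 7.90 and 8.09 in N-myc high and at 8.02 and 8.41 in N-myc low arrays. Above this bound lay 29 and 22 members in N-myc high, against 26 and 19 in N-myc low. The bound is 1 gene whose value differed between arrays, so these counts do not compare the fractions. Probe sets differ in how well they bind, so intensities of different genes were not ranked as RNA amounts. The distant-tissue list gives only a rough background. Medians over all genes, from 6.19 to 6.26 between arrays, each exceeded the 90th percentile of that list on the same array. Passing it thus did not set the members apart from many other genes.

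The median over the 38 members was 8.50 and 8.43 in N-myc high, against 8.72 and 8.43 in N-myc low HSCs (mouse 1 and 2). The N-myc low array of mouse 1 held the highest value for 17 of the 38 members, the N-myc low array of mouse 2 for 11, and the N-myc high arrays of mouse 1 and 2 for 6 and 4. The lowest value was in the N-myc high array of mouse 2 for 17 members.

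Between the fractions, no member passed the adjusted threshold. In limma over all 18193 genes 0 members had an adjusted p under 0.05, with a lowest adjusted p of 0.779, and 0% of all genes passed. At an unadjusted p under 0.05 there was 1 member on the higher side, Hmmr, where 3.53% of all genes were, and 1 on the lower side, Birc5, where 2.78% of all genes were. The median difference of the members (N-myc high minus N-myc low) was -0.06, beside -0.03 over all genes. It was -0.13 without the N-myc high array of mouse 1, -0.20 without the N-myc low array of mouse 2, and -0.23 in a fit that included the level of the hybridisation controls. With arrays centred on their medians it was -0.11, beside -0.08 over all genes. The members' median was -0.05 within mouse 1 and -0.06 within mouse 2, beside -0.06 and -0.00 over all genes.

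The members' signs leaned to the lower side without large sizes. Of the 38, 27 (71.1%) had a negative difference, beside 54.7% of all genes. In 15 members N-myc high was lower in both mice and in 5 it was higher in both, where 29.7% and 23.2% of all genes did the same. Both N-myc high arrays lay below both N-myc low arrays for 11 members (28.9%, background 20.8%) and above them for 2 (5.26%, background 15.6%). Among the brighter genes of the array, where every member lies, the same shares of genes were 17.96% below and 19.1% above. The genes of this group are known to vary together, so these counts are not 38 independent observations and carry no test. Within mouse 1 alone 25 members (65.8%) were negative and within mouse 2 alone 23 (60.5%), beside 55.7% and 50.3% of all genes.

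**Figure D2:**
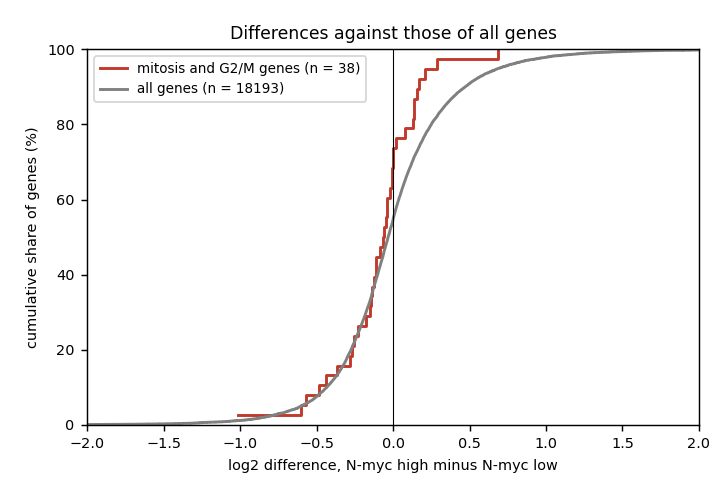
Cumulative share of genes (y axis, %) by log2 difference, N-myc high minus N-myc low (x axis), for the 38 members (red) and all 18193 genes (grey); 44 genes lie beyond the axis. The curves part near 0, where 71.1% of the members and 54.7% of all genes lie below it, and Hmmr at 0.68 is the members' highest difference.

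Sizes were small for most members. The absolute difference was under 0.25 for 27 of the 38 (beside 10485 of 18193 genes), at least 0.5 for 4 (Bub1, Anln, Ndc80 and Hmmr, beside 16.6% of all genes) and at least 1 for Bub1 alone (beside 3.25% of all genes). The median 95% interval reached 0.68 to either side of the difference, with a range of 0.46 to 1.25 among members. For 24 of the 38 members the whole interval lay within -1 and 1, as it did for 11522 of 18193 genes, so for these a 2-fold difference in either direction was outside it, while smaller differences were not resolved. For 28 of the 38 (73.7%, beside 75.7% of all genes) the difference between fractions was smaller than the larger of the 2 gaps between mice within a fraction.

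**Figure D3:**
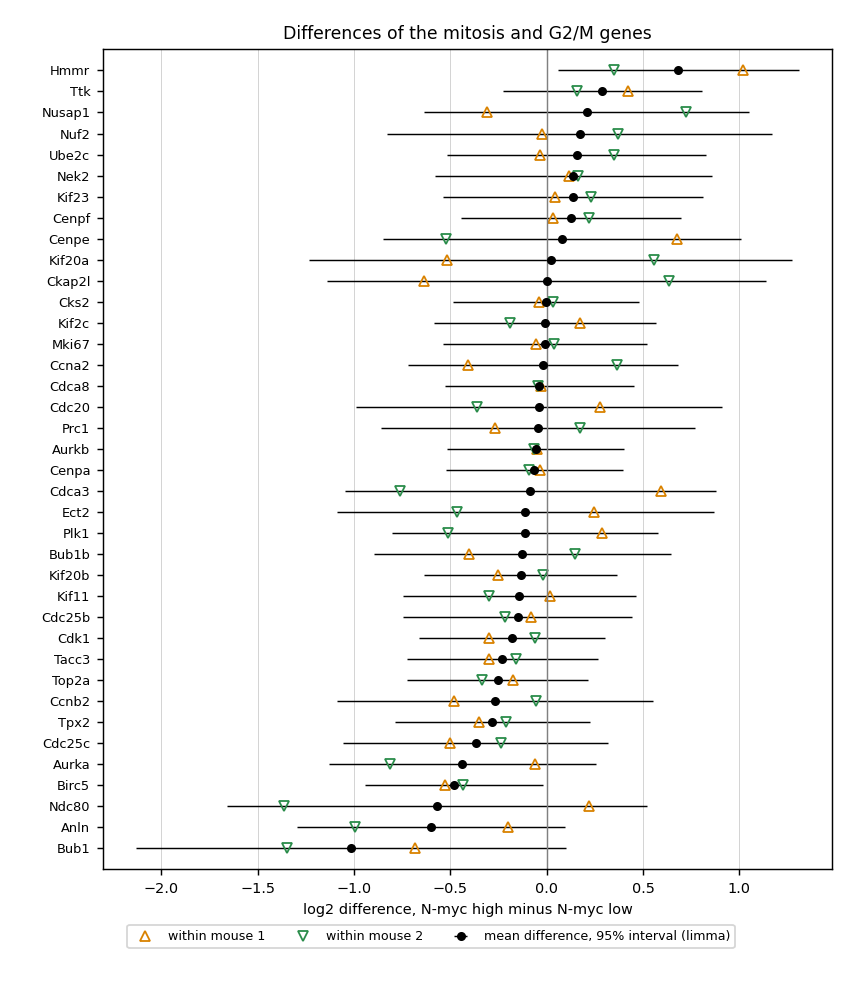
Log2 difference, N-myc high minus N-myc low (x axis), of each member (rows, highest at the top), with the mean over the 2 mice and its 95% limma interval (black) and the difference within mouse 1 and mouse 2 (triangles). The interval of Hmmr lies above 0 and that of Birc5 below it, and those of the other 36 members include 0.

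The Cdk1 and cyclin axis drives entry into mitosis. All 7 measured members of this axis had a negative difference, with a median of -0.15 (role lists as defined here, 0 of 7 passed), and 4 of them were negative in both mice. Over all genes 54.7% were negative and 29.7% were negative in both mice. With the mean of probe sets Ccna2 (0.072) and Cdc25c (0.039) turned positive, so the common sign rests on the choice of probe set. Cdk1, the kinase that starts mitosis once bound to cyclin, was at 9.50 and 9.66 in N-myc high and at 9.80 and 9.72 in N-myc low HSCs. The N-myc high arrays lay below the N-myc low arrays, by 0.18 on average (SE 0.182, limma adjusted p = 0.877), which is no more than the error. Ccnb2, a B-type cyclin, was at 9.14 and 8.85 in N-myc high and at 9.62 and 8.91 in N-myc low, a difference of -0.27 (SE 0.308, limma adjusted p = 0.896). The groups overlapped, and the N-myc low array of mouse 1 stood apart as the highest. Ccna2, the cyclin of S phase and G2, was at 9.43 and 9.64 in N-myc high and at 9.84 and 9.28 in N-myc low, with a difference of -0.02 (SE 0.263, limma adjusted p = 0.997). Its N-myc high values lay between those of the N-myc low arrays, and its dimmer probe set gave 0.16.

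Cdc25c, a phosphatase that removes the inhibitory phosphates from Cdk1, was at 7.51 and 7.25 in N-myc high and at 8.01 and 7.49 in N-myc low (difference -0.37, SE 0.260, limma adjusted p = 0.829). The N-myc low value of mouse 2 fell just inside the N-myc high range. A second, dimmer probe set of Cdc25c gave 0.45, with N-myc high higher and no overlap, which makes its sign uncertain. Cdc25b, its relative that acts early in mitotic entry, was at 6.80 and 6.44 in N-myc high and at 6.89 and 6.66 in N-myc low. Plk1, the Polo kinase of mitotic entry and spindle formation, was at 7.93 and 7.43 in N-myc high and at 7.64 and 7.94 in N-myc low (difference -0.11, SE 0.259, limma adjusted p = 0.955). The fractions had opposite order in the mice, with 0.29 in mouse 1 and -0.51 in mouse 2. Cks2, a small subunit that binds Cdk1, lay between 10.91 and 11.07 on all 4 arrays, and its difference was -0.00.

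Genes of spindle assembly held both the highest member and several with groups apart on the lower side. Over 9 genes the median difference was -0.01, with a range from -0.44 to 0.68, and 0 of 9 passed the adjusted threshold. Hmmr, a microtubule-binding protein of the spindle poles that is also known as the hyaluronan receptor RHAMM, was at 8.26 and 8.01 in N-myc high HSCs and at 7.25 and 7.66 in N-myc low HSCs. The groups did not overlap, N-myc high being higher by 1.02 in mouse 1 and 0.35 in mouse 2, and the mean difference was 0.68 (SE 0.236, limma adjusted p = 0.779). Of its 4 other probe sets none separated the groups, and their differences were 0.32, 0.12, -0.01 and 0.19.

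Aurka, the Aurora kinase of centrosomes and spindle poles, was at 8.26 and 7.71 in N-myc high and at 8.32 and 8.52 in N-myc low (difference -0.44, SE 0.260, limma adjusted p = 0.811). The N-myc high array of mouse 2 stood apart as the lowest, and within mouse 1 the difference was -0.06. Tpx2, which binds and activates Aurora A on spindle microtubules, was at 8.46 and 8.69 in N-myc high and at 8.81 and 8.90 in N-myc low (difference -0.28, SE 0.190, limma adjusted p = 0.826). Tacc3, a spindle protein that Aurora A recruits, was at 8.81 and 9.02 in N-myc high and at 9.11 and 9.18 in N-myc low (difference -0.23, SE 0.187, limma adjusted p = 0.843). For Tpx2 and Tacc3 alike the groups did not overlap. The other 2 probe sets of Tacc3 gave -0.58 and -0.76, also with no overlap. All 4 probe sets of Tpx2 were negative, the dimmest at mean levels of 3.49 and 3.04.

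Most of the other spindle genes had opposite signs in the mice. Nusap1, which bundles microtubules near chromosomes, was at 9.06 and 9.34 in N-myc high and at 9.37 and 8.62 in N-myc low (difference 0.21, SE 0.317, limma adjusted p = 0.928). Its difference was -0.31 in mouse 1 and 0.72 in mouse 2. Ckap2l, a spindle pole protein, was at 9.35 and 9.44 in N-myc high and at 9.98 and 8.81 in N-myc low, so the N-myc low arrays bracketed the N-myc high ones and the mean difference was 0.00 (SE 0.429). Kif11, the motor that pushes spindle poles apart, was at 9.28 and 8.85 in N-myc high and at 9.26 and 9.15 in N-myc low, while its 2 dimmer probe sets gave 0.25 and 0.14 with N-myc high higher and no overlap. Kif2c, a kinesin that depolymerises microtubules at centromeres, was at 7.96 and 7.99 in N-myc high and at 7.78 and 8.18 in N-myc low, a difference of -0.01. Its 3 dimmer probe sets gave -0.32, -1.10 and -0.80, each with N-myc high below N-myc low on all arrays. Their mean levels were 5.88, 5.80 and 3.79, under the lowest background percentile of the distant-tissue genes (5.96). These 3 probe sets therefore cannot settle the sign of Kif2c. Nek2, a kinase of centrosome separation, was at 6.30 and 6.77 in N-myc high and at 6.19 and 6.61 in N-myc low (difference 0.14, SE 0.270, limma adjusted p = 0.946). Its other probe sets gave 0.69, 0.16 and -0.19, at mean levels of 5.77, 3.59 and 3.42.

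Bub1, a kinase of the spindle checkpoint, which halts cells until every chromosome is attached, showed the largest difference of all members. It was at 7.63 and 6.56 in N-myc high HSCs and at 8.32 and 7.91 in N-myc low HSCs. The groups did not overlap, yet the N-myc high arrays lay 1.08 apart, and the N-myc high array of mouse 2 was the lowest. The difference was -1.02 (2.02-fold lower, SE 0.420, limma adjusted p = 0.788), with a 95% interval of -2.13 to 0.10. Without the N-myc high array of mouse 1 it was -1.55, and the dimmer probe set of Bub1 gave 0.08 at a mean level of 5.49. Ttk, the checkpoint kinase also known as Mps1, was at 7.70 and 7.71 in N-myc high and at 7.28 and 7.55 in N-myc low (difference 0.29, SE 0.194, limma adjusted p = 0.826). With Hmmr it was among the 2 members whose N-myc high arrays both lay above the N-myc low arrays. Its dimmer probe set gave -0.22 at a mean level of 5.65. Bub1b, which encodes the checkpoint protein BubR1, was at 8.59 and 8.45 in N-myc high and at 8.995 and 8.30 in N-myc low, so the groups overlapped.

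Centromere and kinetochore genes, which tie chromosomes to spindle microtubules, had a median difference of 0.08 over 5 measured members, and 0 of 5 passed. Ndc80, the microtubule-binding core of the outer kinetochore, was at 7.77 and 6.97 in N-myc high and at 7.55 and 8.33 in N-myc low (difference -0.57, SE 0.410, limma adjusted p = 0.832). The difference was -1.36 in mouse 2 and 0.22 in mouse 1, and the groups overlapped. Nuf2, its partner in the same complex, was at 8.01 and 7.52 in N-myc high and at 8.04 and 7.15 in N-myc low (difference 0.17, SE 0.376, limma adjusted p = 0.952). The partners thus had opposite signs, both within their error. Cenpa, the histone H3 variant that marks centromeres, was nearly level at 8.07 and 8.06 in N-myc high, against 8.11 and 8.16 in N-myc low. Its groups did not overlap, but the difference was only -0.06 (SE 0.172, limma adjusted p = 0.968). Cenpf, a large kinetochore protein of G2, was at 8.05 and 8.40 in N-myc high and at 8.01 and 8.18 in N-myc low (difference 0.13, SE 0.214, limma adjusted p = 0.936). Cenpe, a kinetochore motor, was at 7.70 and 6.86 in N-myc high and at 7.02 and 7.38 in N-myc low, with the order of the fractions reversed between the mice. A second probe set of Cenpe, of nearly the same brightness, gave -0.59 and was negative in both mice. A second probe set of Cenpf gave -0.96 (mean level 7.39), with N-myc high lower and no overlap. Its dimmest gave 0.66 (mean level 4.43), with N-myc high higher and no overlap. The other probe sets of Cenpa gave 0.68 and -0.71 (mean levels 6.32 and 6.01), so the median of 0.08 rests on the choice of probe set.

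The chromosomal passenger complex corrects faulty attachments and guides cytokinesis. Its 3 members were negative in both mice, as 29.7% of all genes were. Birc5, which encodes survivin, the subunit that brings the complex to centromeres, was at 9.19 and 9.22 in N-myc high HSCs and at 9.72 and 9.66 in N-myc low HSCs. The arrays within each fraction lay within 0.06 of each other and the fractions did not overlap. The difference was -0.48 (1.40-fold lower, SE 0.173, limma adjusted p = 0.779), with -0.53 in mouse 1 and -0.44 in mouse 2. Birc5 rests on 1 probe set. Aurkb, the kinase of the complex, was at 8.85 and 8.81 in N-myc high and at 8.90 and 8.88 in N-myc low (difference -0.06, SE 0.172, limma adjusted p = 0.971). Its dimmer probe set gave 0.46, with N-myc high higher and no overlap. With the mean of probe sets Aurkb turned positive (0.20), so the common sign of the complex rests on the choice of probe set. Cdca8, the subunit borealin, was at 10.40 and 10.54 in N-myc high and at 10.43 and 10.58 in N-myc low, a difference of -0.04. Its dimmer probe sets gave -0.29 and -0.48, both with N-myc high lower and no overlap.

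Genes of mitotic exit showed no common direction between the mice. Cdc20, the activator of the anaphase-promoting complex (APC/C), was at 10.29 and 9.39 in N-myc high and at 10.02 and 9.75 in N-myc low (difference -0.04, SE 0.357, limma adjusted p = 0.995). Ube2c, the ubiquitin-conjugating enzyme of that complex, was at 11.00 and 10.84 in N-myc high and at 11.03 and 10.49 in N-myc low (difference 0.15, SE 0.253, limma adjusted p = 0.932). Cdca3, which promotes mitotic entry through degradation of Wee1, was at 9.53 and 8.91 in N-myc high and at 8.94 and 9.67 in N-myc low. In all 3 the difference had opposite signs in the 2 mice, and 0 of 3 passed.

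Central spindle and cytokinesis genes had a median difference of -0.08 over 6 members, 2 of them negative and 1 positive in both mice. Anln, the actin-binding scaffold of the contractile ring, was at 6.99 and 6.46 in N-myc high HSCs and at 7.198 and 7.45 in N-myc low HSCs. The groups did not overlap, and the difference was -0.60 (SE 0.262, limma adjusted p = 0.793), with -0.20 in mouse 1 and -0.998 in mouse 2. Its dimmer probe set gave -0.34, again with no overlap, at a mean level of 5.54. Kif20a, a kinesin of the central spindle, was at 8.01 and 7.78 in N-myc high and at 8.53 and 7.23 in N-myc low, so the N-myc low arrays lay furthest apart of any member and the difference was 0.02 (SE 0.472). Kif23, a motor of the centralspindlin complex, was at 8.65 and 8.36 in N-myc high and at 8.61 and 8.13 in N-myc low (difference 0.14, SE 0.253, limma adjusted p = 0.942). A second probe set of Kif23 gave -0.78. Prc1, which bundles the midzone microtubules, was at 8.39 and 8.11 in N-myc high and at 8.65 and 7.94 in N-myc low. Ect2, the exchange factor that activates RhoA for furrowing, was at 7.55 and 6.599 in N-myc high and at 7.30 and 7.07 in N-myc low. The values of Prc1 and Ect2 overlapped between the fractions. Kif20b, another kinesin of cytokinesis, was at 8.54 and 8.53 in N-myc high and at 8.79 and 8.55 in N-myc low, with no overlap but a difference of only -0.02 in mouse 2.

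Of the 2 genes of mitotic chromosomes, Mki67 had a difference of -0.01 (SE 0.200, limma adjusted p = 0.999) with a 95% interval of -0.54 to 0.52, the values being those given above. Top2a, the topoisomerase that untangles sister chromatids, was at 9.48 and 9.35 in N-myc high and at 9.66 and 9.68 in N-myc low. Its groups did not overlap, with a difference of -0.26 (SE 0.177, limma adjusted p = 0.827). Its 2 dimmer probe sets gave -0.35 with overlap and 0.48 with N-myc high higher and no overlap, so the sign differed between probe sets.

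**Figure D4:**
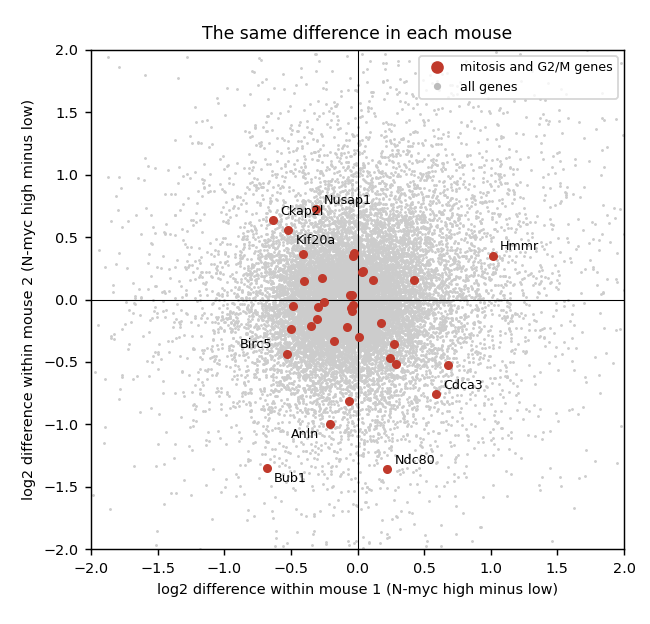
Log2 difference, N-myc high minus N-myc low, within mouse 1 (x axis) and within mouse 2 (y axis) for the 38 members (red) and all genes (grey); 300 genes lie beyond the axes. Hmmr stands apart at upper right and Bub1 at lower left, while Ndc80, Cdca3, Ckap2l, Kif20a and Nusap1 lie in the quadrants of opposite sign.

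The mice differed about as much as the fractions, for the members and for all genes alike. The median absolute difference of the members between N-myc high and N-myc low was 0.26 in mouse 1 and 0.27 in mouse 2, beside 0.27 and 0.27 over all genes. Between mouse 1 and mouse 2 it was 0.25 within N-myc high and 0.29 within N-myc low, beside 0.24 and 0.27 over all genes. In N-myc high HSCs 25 of the 38 members were lower in mouse 2 than in mouse 1, beside 8067 of 18193 genes. In N-myc low HSCs 21 were, beside 9289 of 18193 genes. The gap between mice reached 1 or more for 3 members, Bub1 in N-myc high and Ckap2l and Kif20a in N-myc low. With the mouse as a replicate block, 0 members were at an unadjusted p under 0.05 on the higher side and 1 on the lower side. This was Bub1 (limma adjusted p = 0.781) and no longer Birc5. The share of all genes under this fit is not given.

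Several probe sets read the same member in 27 of 38 cases. Of the 48 probe sets not used, 19, belonging to 18 members, had the opposite sign to the one used. In 9 members with several probe sets all were negative, and in 0 all were positive. In 2 of the 9, Anln and Tacc3, N-myc high lay below N-myc low without overlap on every probe set. The dimmer probe set of Anln, at a mean level of 5.54, lay under the lowest background percentile of the distant-tissue genes (5.96). The median difference was -0.08 over all 86 probe sets of the members.

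**Figure D5:**
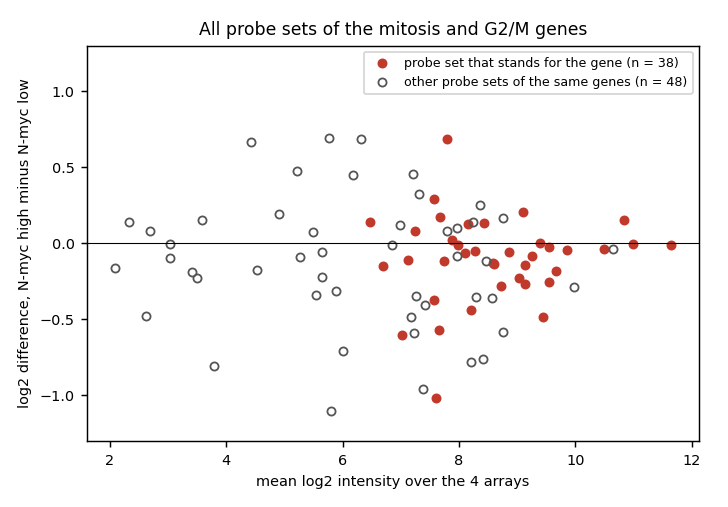
Log2 difference, N-myc high minus N-myc low (y axis), against mean log2 intensity over the 4 arrays (x axis) for the 38 probe sets that stand for the members (red) and the 48 other probe sets of the same genes (open). The dimmer probe sets spread to both sides of 0, while those above a mean of 10 lie close to it.

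The rest of the mitotic machinery was listed in 7 further groups of 113 genes, of which 112 were measured. Their median difference was -0.02, with 53 positive and 59 negative, beside -0.03 and 54.7% negative over all genes. In either direction 0 passed, as did 0% of all genes. At an unadjusted p under 0.05 there were 4 on the higher and 2 on the lower side, beside 3.53% and 2.78% of all genes. Among regulators of the programme itself, the 13 DREAM, MuvB and FOXM1 genes had a median of -0.23. Rbl2, the p130 subunit of DREAM, was at 8.35 and 7.95 in N-myc high and at 7.64 and 7.26 in N-myc low (difference 0.70, SE 0.251, limma adjusted p = 0.779), and Lin9 of the MuvB core had -0.59. Among other kinases and entry regulators (median 0.10 over 12), Mastl, the Greatwall kinase, had 0.52 and Plk4, the kinase of centriole duplication, -0.59. APC/C genes had a median of 0.11 over 16, with Anapc11 at 0.27 and Cdc27 at -0.30.

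The 28 measured genes of the checkpoint and kinetochore outside the members had a median of -0.00, with Ska3, of the complex that couples kinetochores to microtubules, at 0.85 and Zwilch at -0.38. Cohesin and separase genes had -0.01 over 13, with the cohesin subunit Stag1 at 0.67 and the separase Espl1 at -0.51. The 8 condensin genes had -0.20, with Smc4 at 0.04 and Ncaph2 at -0.31. Other spindle and cytokinesis genes had -0.11 over 22. Among them Sapcd2, a regulator of spindle orientation, was at 8.20 and 8.57 in N-myc high and at 7.29 and 7.30 in N-myc low (difference 1.09, SE 0.211, limma adjusted p = 0.744), the highest of the 112. Kif15, named after its values were seen, had the lowest difference of the 112, -1.23 (SE 0.42, limma adjusted p = 0.779). Spag5, a spindle protein also called astrin, had -0.70. Genes of DNA replication and the G1/S transition, which mark the phase before, had a median of -0.04 over 26 measured of 28, with Tyms at 0.45 and Rfc4 at -0.71. Of these, 0 were at an unadjusted p under 0.05, where 3.53% of all genes were higher and 2.78% lower.

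Levels of markers of other blood cells were set beside these genes, and 0 of the markers had a limma adjusted p under 0.05. Over all genes 29.7% were lower in N-myc high in both mice and 23.2% higher. Of 11 measured progenitor markers 9 were lower in N-myc high HSCs in both mice. The other 2, Gfi1 with a difference of 1.56 and Flt3 with 1.204, were higher in both mice. The summed intensity of the 11 was 12.81 and 12.91 in N-myc high against 13.52 and 13.50 in N-myc low on the log2 scale. Cdk6, a kinase of G1 that progenitors use to enter cycle, was at 9.64 and 9.86 in N-myc high and at 10.75 and 10.68 in N-myc low (difference -0.97, SE 0.189, limma adjusted p = 0.744). Of 13 measured HSC markers 8 were higher in both mice and 2 lower, Gata2 with -0.29 and Kit with -0.13, and the sum of the 13 was 13.05 and 13.25 in N-myc high against 12.85 and 12.85 in N-myc low. The sum of the 38 members was 14.44 and 14.32 in N-myc high against 14.54 and 14.36 in N-myc low. Of 10 measured erythroid markers 6 were lower in both mice and 3 higher, and their sums were 12.94 and 12.88 in N-myc high against 13.11 and 12.84 in N-myc low. The granulocyte markers, 7 of 9 lower and 1 higher in both mice, summed to 14.93 and 14.74 in N-myc high against 15.02 and 14.96 in N-myc low, with S100a9 between 13.44 and 13.69 on all arrays. The sums were 12.15 and 11.95 in N-myc high against 11.89 and 11.77 in N-myc low for 9 megakaryocyte markers. Of these, 5 were lower in both mice, among them Gp1bb with -0.997, Gp5 with -0.996 and Itga2b with -0.55, and 3 were higher, Vwf with 1.88, Clec1b with 0.94 and Pf4 with 0.47, and the median was -0.22. For 10 macrophage and dendritic cell markers the sums were 10.31 and 10.43 in N-myc high against 9.04 and 8.69 in N-myc low, with a median difference of 0.26. Of these, 6 were higher in both mice, led by C1qb with 2.66, Mrc1 with 2.26 and Cd74 with 2.15, and 1 was lower, Siglec1 with -0.36. For 9 B cell markers the sums were 9.98 and 9.14 in N-myc high, against 8.50 and 10.33 in N-myc low, with 4 higher and 2 lower in both mice. For 7 T and NK cell markers they were 9.35 and 9.24 in N-myc high, against 9.88 and 10.08 in N-myc low, with 2 higher and 3 lower in both mice. Intensities have no zero, so no listed marker is at 0. The part of such cells in the levels or differences of the mitotic genes was not tested.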

How the data were processed

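HSC RNA was hybridised to 4 Affymetrix mouse arrays, 2 for each N-myc fraction. Values deposited by the authors are RMA log2 intensities of probe sets, per the submitters' processing notes. Those notes name affy and limma as well, with no version; build and filters were not given in the sources used here. RMA equalises arrays, so a shift common to all genes is lost. Array medians over 45101 probe sets ran from 5.26 to 5.32. Arrays have no read depth, and their number limits the precision.

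Gene names came from the platform annotation, and 0 symbols changed through the Entrez number in the RefSeq table (GRCm38.p6), which held 34741 of the 34945 probe sets with 1 name. Left out were 932 probe sets with more than 1 name and 9160 with none. The fractions were compared over 18193 genes in R 4.3.3 with limma 3.58.1 (lmFit, eBayes), using Benjamini-Hochberg adjustment at 0.05. For 2 against 2 arrays the smallest two-sided exact permutation p is 0.333. In 20 simulations over 18193 genes with 200 changed, log2 changes of 1, 2 and 3 were recovered in 0%, 6.72% and 59.7% of cases.

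The labels give both fractions a mouse 1 and a mouse 2, read as the same animals. Array deviations from the group mean had r = 0.0492 within a mouse, over genes. The labels do not say whether a mouse number stands for 1 animal, and the arrays of mouse 1 held RNA of both sexes. How that arose was not tested. Differences within a mouse are thus between arrays with the same mouse number. The p-values measure the spread between these samples, which may be technical. Full statistics were given for the 8 members of smallest p in each direction and 10 core members, and each list of other mitotic genes has its smallest p in each direction named. Kif15, the surface genes and the blood cell markers were named after their values were seen. Members and lists were chosen with earlier results of these data known. Alternatives were the mouse as a block, the mean of probe sets, brighter genes only, a trended robust prior, median centring, the hybridisation controls as a covariate, and leaving out each array.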

Additional observations from a re-analysis of the deposited data

How the results depend on the processing

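No gene passed an adjusted p under 0.05 by limma under any of the alternatives run. The number of members at an unadjusted p under 0.05 was 1 on each side. On the higher side it was 0 with the mouse as a replicate block, 0 with the mean of probe sets, 0 with a trended robust prior and 0 to 1 when each array was left out. On the lower side it was 3 with the mean of probe sets, 0 among brighter genes only, 2 with the hybridisation controls as a covariate and 0 to 2 when each array was left out. The median difference of the members, -0.06, was -0.06 with the replicate block, -0.23 with the covariate and -0.20 to -0.05 when each array was left out, the -0.20 being without the N-myc low array of mouse 2. Negative members numbered 22 to 28 when each array was left out, and 25 in mouse 1 and 23 in mouse 2 alone, which like the shares among brighter genes were computed after seeing the data. Centring moved the median of all genes to -0.08 and that of the members to -0.11. The replicate block changed the sign of 0 members.

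Signs turned for the following members, and the cause was not tested. The hybridisation controls were higher in both N-myc low arrays, so the fit with this covariate separates it poorly from the fraction. With the mean of probe sets the differences were Ccna2 0.072, Cdc25c 0.039, Kif11 0.083, Ckap2l -0.057, Cenpe -0.26, Cenpf -0.056, Aurkb 0.20 and Kif23 -0.17. With centring they were Ckap2l -0.051 and Kif20a -0.031. With the covariate they were Cks2 0.058, Plk1 0.17, Nusap1 -0.44, Kif2c 0.33, Ckap2l -0.999, Ndc80 0.13, Nuf2 -0.55, Cdca8 0.080, Ube2c -0.29, Cdca3 0.57, Kif20a -1.07 and Kif23 -0.25. When each array was left out the ranges were Ccnb2 -0.62 to 0.089, Ccna2 -0.30 to 0.26, Cdc25b -0.33 to 0.032, Cks2 -0.081 to 0.074, Plk1 -0.36 to 0.14, Nusap1 -0.17 to 0.58, Kif11 -0.36 to 0.074, Kif2c -0.21 to 0.19, Nek2 -0.095 to 0.37, Ckap2l -0.59 to 0.59, Bub1b -0.47 to 0.22, Cenpe -0.34 to 0.50, Cenpf -0.048 to 0.30, Nuf2 -0.27 to 0.61, Cdca8 -0.11 to 0.036, Cdc20 -0.49 to 0.41, Ube2c -0.11 to 0.42, Cdca3 -0.45 to 0.28, Kif20a -0.63 to 0.67, Kif23 -0.10 to 0.38, Prc1 -0.40 to 0.31, Ect2 -0.59 to 0.36 and Mki67 -0.14 to 0.12. A lone array in a group was assumed to vary like the other group.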

Other observations

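Hjurp, the chaperone that loads the centromere histone CENP-A, has 5 probe sets that the annotation gives several names, so it entered no comparison. The brightest was at 9.64 and 9.54 in N-myc high HSCs and at 9.08 and 9.19 in N-myc low HSCs, a difference of 0.45. Another was at 8.05 and 8.07 in N-myc high and at 8.65 and 8.55 in N-myc low, a difference of -0.54. The other 3 gave -0.18, 0.62 and -0.80, so its probe sets had no common direction.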
